A study of Mus musculus with 6 samples.

Results

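The redox, iron and stress response genes described here are Ptgs2, Slc7a11, Gclm, Gdf15 and Tfrc. They were taken by gene symbol from a deposited table of 559 genes, and all 5 symbols were found once each. Ptgs2 encodes cyclooxygenase 2, the inducible enzyme that starts prostaglandin synthesis from arachidonic acid. Slc7a11 encodes xCT, the transporter that brings cystine into the cell in exchange for glutamate. Gclm encodes the modifier subunit of glutamate-cysteine ligase, the enzyme that uses the resulting cysteine in the rate-limiting step of glutathione synthesis. Gdf15 encodes a secreted stress cytokine of the TGF-beta superfamily. Tfrc encodes transferrin receptor 1, which takes up transferrin-bound iron and is also known as the proliferation marker CD71.

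These genes sit on connected pathways. Cystine uptake and glutathione protect membrane lipids from iron-dependent peroxidation, the process behind ferroptosis, whereas iron taken up through the transferrin receptor feeds it. Slc7a11 and Gclm are textbook targets of the oxidative stress factor NRF2, and Slc7a11 and Gdf15 are also induced by ATF4, the factor of the integrated stress response. In immune cells Ptgs2 is best known from activated myeloid cells, and its product prostaglandin E2 dampens natural killer (NK) cells.

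The RNA came from purified splenic NK cells of C57BL/6 mice. The control group was kept for 36 h without oleic acid and the OA group for 36 h with 0.2 mM OA (oleic acid, the main monounsaturated fat of olive oil), and each group has 3 libraries. Per the labels the treatment was carried out a single time, and nothing says that the libraries of a group came from separate animals or cultures, so p-values measure only the spread between these libraries. Levels are in TPM, which corrects for transcript length and library size, so they can be compared between genes. The TPM values of the listed genes summed to between 121857 and 126392 per library, and the depth of the libraries is unknown. Every listed gene had an authors' Q value under 0.05 in this same comparison, so each of the 5 genes differed between the groups by construction of the table, and the tests below describe the size and spread of that difference. For a gene that was not listed, neither a level nor a change is known here.

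In GRCm38.p6, RefSeq places Ptgs2 (gene ID 19225) at chr1:150100031-150108234, Slc7a11 (26570) at chr3:50364936-50499087 and Gclm (14630) at chr3:122245487-122267215. It places Gdf15 (23886) at chr8:70629393-70632470 and Tfrc (22042) at chr16:32608896-32632794.

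In the OA libraries 4 of the 5 genes were higher and Tfrc was lower. Gdf15 stood 1.65-fold higher on average, Ptgs2 1.29-fold, Gclm 1.21-fold and Slc7a11 1.16-fold, while Tfrc stood at 0.879 of the control level. For each of the 5 the control and OA libraries did not overlap. The order of the levels was the same in all 6 libraries, from Ptgs2 through Gclm, Slc7a11 and Tfrc to Gdf15, and no neighbours in this order overlapped.

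**Figure D1:**
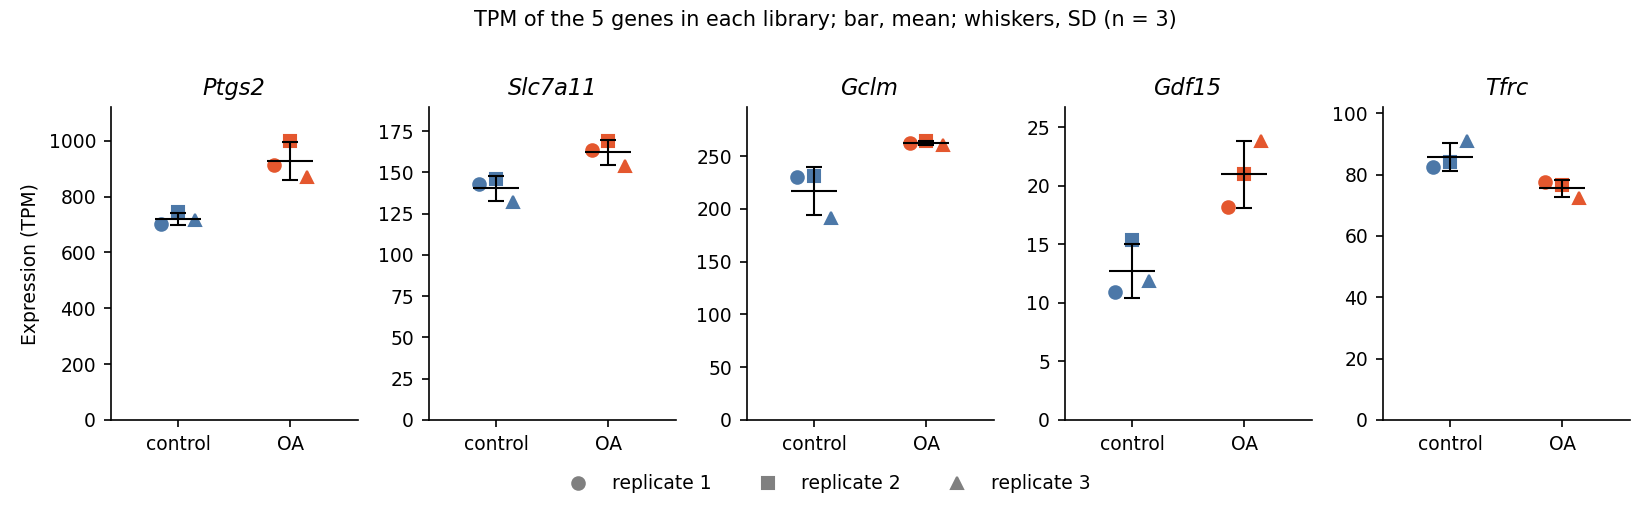
TPM (vertical axes, each from 0) of the 5 genes in the 3 control and 3 OA libraries; the symbol shape gives the replicate number, the horizontal bar the mean and the whiskers the SD. Ptgs2, Slc7a11, Gclm and Gdf15 sit higher in all OA libraries than in any control library, and Tfrc sits lower. The axes differ between the genes. In TPM the distance between the groups was smallest, at 2.81 TPM, for Gdf15, the gene with the lowest level and the largest fold difference.

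In limma on log2(TPM + 1) over all 559 genes, with Benjamini-Hochberg adjusted p under 0.05, all 5 passed: 4 rose and 1 fell. The same test called 76.0% of the listed genes, 36.0% as higher and 40.1% as lower, and 93.6% had no overlap between the control and OA values, so neither a call nor separate groups is rare in this table. With libraries scaled to equal medians, 162 listed genes were called higher and 82 lower, against 201 and 224 without that scaling. Of the 5 genes, Ptgs2 and Gdf15 still passed. An exact permutation test of a single gene cannot go below p = 0.1 with 3 libraries against 3.

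**Figure D2:**
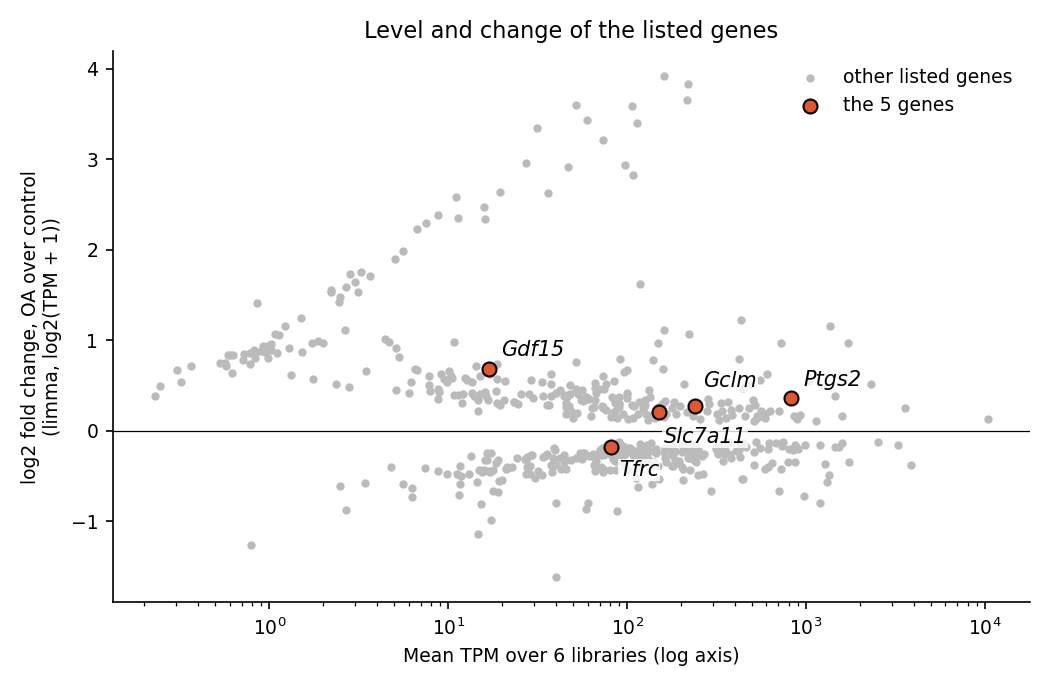
Mean TPM over the 6 libraries (horizontal, log axis) against the limma log2 fold change of OA over control (vertical) for the 559 listed genes, with the 5 genes in colour. Ptgs2 is among the more abundant listed genes at rank 32 of 559, and Tfrc has the smallest change of the 5.

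Ptgs2 was the most abundant of the 5 genes. Its level was 702, 744 and 717 TPM in control replicates 1, 2 and 3 and 915, 1000.0 and 869 TPM in OA replicates 1, 2 and 3. The controls lay close together, with a coefficient of variation of 2.94%, and the OA libraries spread more widely, at 7.19%. The means were 721 ± 21.2 and 928 ± 66.7 TPM (SD, n = 3 per group). On the log2 scale the gene rose by 0.36 (SE 0.0687, 95% interval 0.19 to 0.53, adjusted p = 0.026, limma). In the authors' deposited table Ptgs2 had a P value of 2.03e-16, the second smallest of the 559 genes, while its limma log2 fold change ranked 273 by size. The limma call was lost without control replicate 1 (log2 0.34, adjusted p = 0.0662) and without OA replicate 2 (log2 0.31, adjusted p = 0.0793).

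Other genes of a list around the eicosanoid pathway, which turns arachidonic acid into prostaglandins, thromboxane and leukotrienes, were also in the table. The list also holds genes outside that synthesis, such as receptor genes and Pla2g7. Of 35 genes on this list 6 were in the table; 5 rose, 0 fell and Ptges did not pass, beside 76.0% called and 36.0% called as higher among all listed genes. Beside Ptgs2 these were Pla2g4a, the phospholipase that frees arachidonic acid (88.4 ± 3.11 to 101 ± 4.71 TPM), Tbxas1, the thromboxane synthase gene (66.5 ± 5.66 to 79.5 ± 0.911 TPM), Ptgr1, which encodes a prostaglandin reductase (43.7 ± 7.09 to 60.1 ± 4.65 TPM), and Pla2g7, which encodes the platelet-activating factor acetylhydrolase (809 ± 37.7 to 908 ± 9.43 TPM). Ptges encodes the inducible prostaglandin E synthase that acts after cyclooxygenase 2, and stood at 124, 127 and 124 TPM in control and 135, 140 and 133 TPM in OA (adjusted p = 0.0543, limma). The median log2 fold change of the 6 was 0.22, against 0.14 for all listed genes. That background turns to -0.17 over the 472 genes with a mean of at least 10 TPM, a level that all 6 reach, and so does the background of the medians given below.

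Slc7a11 and Gclm, which act one after the other on the way to glutathione, rose by small amounts. Slc7a11 stood at 143, 146 and 132 TPM in control replicates 1 to 3 and at 163, 169 and 154 TPM in OA replicates 1 to 3. Replicate 3 was the lowest library of both groups, and only 7.47 TPM separated the highest control from the lowest OA library. The means were 140 ± 7.40 and 162 ± 7.78 TPM, a log2 rise of 0.21 (SE 0.0656, 95% interval 0.04 to 0.37, adjusted p = 0.0378, limma). Of the leave-one-out fits, the call was kept without OA replicate 3 (adjusted p = 0.0411, limma). It was lost without control replicate 1, 2 or 3 (adjusted p = 0.0863, 0.0624 and 0.0793, limma) and without OA replicate 1 or 2 (adjusted p = 0.0778 and 0.11, limma).

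Gclm stood at 230.1, 231 and 191 TPM in control and at 263, 265 and 260.1 TPM in OA. Control replicate 3 lay at 87.9% of the mean of its group, whereas the OA libraries lay between 99.1% and 101% of theirs. The means were 217 ± 22.8 and 262 ± 2.24 TPM, a log2 rise of 0.28 (SE 0.0879, 95% interval 0.05 to 0.50, adjusted p = 0.0379, limma). Without control replicate 3 the rise was 0.19 and passed (adjusted p = 0.0431, limma). The call was lost without control replicate 1 or 2 (adjusted p = 0.0733 and 0.0594, limma) and without OA replicate 1, 2 or 3 (adjusted p = 0.0725, 0.0987 and 0.0596, limma). In RefSeq 2 other gene models, a long noncoding RNA and a pseudogene, overlap the span of Gclm. No source used here gives whether strand was used in the counting.

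The DNA before the start sites of Slc7a11 and Gclm is shown because these genes are known for elements there that respond to stress factors. The 250 bases before the start site in the RefSeq promoter table, 1 for each of these 2 genes, were searched on both strands for the antioxidant response element core TGACNNNGC, bound by NRF2, the amino acid response element core TGATGNAA, bound by ATF4, and 3 general motifs (TGACGTCA, CACGTG, and TGACTCA or TGAGTCA). Capitals mark every match. The Slc7a11 stretch lies at chr3:50443614-50443863 on the minus strand and the Gclm stretch at chr3:122245307-122245556 on the plus strand, both in RefSeq's GRCm38.p6, and each ends 1 base before the start site. These start sites, at base 50443613 for Slc7a11 and 122245557 for Gclm, lie inside the gene spans given above.
Slc7a11: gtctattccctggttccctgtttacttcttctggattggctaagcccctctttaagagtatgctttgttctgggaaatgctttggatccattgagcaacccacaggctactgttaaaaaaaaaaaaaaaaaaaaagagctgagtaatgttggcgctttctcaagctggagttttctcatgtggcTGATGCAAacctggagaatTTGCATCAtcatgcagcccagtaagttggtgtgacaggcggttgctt
Gclm: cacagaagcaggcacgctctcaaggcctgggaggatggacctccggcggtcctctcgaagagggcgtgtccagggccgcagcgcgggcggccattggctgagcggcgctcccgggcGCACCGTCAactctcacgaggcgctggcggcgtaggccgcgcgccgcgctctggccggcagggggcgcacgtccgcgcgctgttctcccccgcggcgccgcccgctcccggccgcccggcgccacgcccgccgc

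Slc7a11 held 2 amino acid response element cores, which read TGATGCAA from base -66 to -59 and, on the other strand, TTGCATCA from base -47 to -40, counted from the start site. Of 32851 promoters of the same length, 3.45% held at least 1 such core and 0.0396% held 2 or more. Gclm held 1 antioxidant response element core on the minus strand, from base -134 to -126, a match found in 10.2% of all promoters. No other match to the 5 motifs was found in either stretch. For the other genes described here the 250 bases before each start site were searched in the same way, and those of Ptgs2 and Tfrc held no match. No stretch reached past its own start site, so a motif beyond it would be missed. Before the Gdf15 start site at base 70632095, CACGTG matched from base -83 to -78, and 6.02% of all promoters held that motif. Gdf15 held no antioxidant or amino acid response element core, there or before its other start site at base 70632456. A match of letters does not show that a factor bound there.

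Among 48 genes taken as NRF2 targets and glutathione synthesis genes, 8 were in the table, of which 5 rose, 0 fell and 3 did not pass. The share called in either direction was below the 76.0% of all listed genes. Among all listed genes 36.0% were called as higher and 40.1% as lower. The median log2 fold change of the 8 was 0.19, against 0.14 for all listed genes. Beside Slc7a11 and Gclm, the genes that rose were Blvrb, which encodes a biliverdin reductase of haem breakdown (257 ± 16.0 to 299 ± 7.49 TPM), Abcc1, which exports glutathione and its conjugates (120 ± 6.54 to 136 ± 5.75 TPM), and Srxn1, which encodes sulfiredoxin and repairs oxidised peroxiredoxins (98.7 ± 11.4 to 119 ± 2.73 TPM). Gsr, which encodes glutathione reductase, averaged 219 TPM in control and 245 TPM in OA (adjusted p = 0.0521, limma). Sqstm1, the autophagy adaptor p62, averaged 558 and 614 TPM (adjusted p = 0.0514, limma). The third that did not pass was Esd. The catalytic subunit gene Gclc and the classic targets Nqo1 and Hmox1 were not listed. The catalase gene Cat, of the antioxidant enzyme list, did not pass at 135 ± 14.9 and 161 ± 7.40 TPM (adjusted p = 0.052, limma).

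Gdf15 had the largest fold difference and the lowest level of the 5 genes. It stood at 10.95, 15.3 and 11.9 TPM in control replicates 1 to 3 and at 18.1, 21.0 and 23.8 TPM in OA replicates 1 to 3. Control replicate 2 was high and OA replicate 1 low for their groups, and 2.81 TPM separated them. The means were 12.7 ± 2.31 and 21.0 ± 2.85 TPM, with coefficients of variation of 18.1% and 13.6%, the widest of the 5 genes in both groups. The log2 rise was 0.68 (SE 0.156, 95% interval 0.29 to 1.08, adjusted p = 0.0265, limma). In limma the call was lost without control replicate 1 (log2 0.59, adjusted p = 0.0677), control replicate 3 (log2 0.65, adjusted p = 0.0621) or OA replicate 2 (log2 0.68, adjusted p = 0.0793). Without replicate 3 of both groups it was lost too (log2 0.55, adjusted p = 0.0672, limma).

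Few other stress response genes were in the table, in which 76.0% of all listed genes were called. Of 51 genes taken as integrated stress response genes 3 were listed, with Slc7a11 and Gdf15 higher and Eif2ak2, which encodes the RNA-activated kinase PKR and is also induced by interferon, lower (30.3 ± 2.54 to 24.7 ± 2.22 TPM, adjusted p = 0.0413, limma). Atf4, Ddit3, Trib3, Asns and Chac1 were not listed. Gdf15 was the 1 listed gene of 27 p53 targets. Of 27 unfolded protein response genes only the disulfide isomerase gene Pdia3 was listed and it did not pass (adjusted p = 0.0782, limma). Of 20 heat shock genes 2 were listed and neither passed. Hspa8, a constitutive chaperone gene, averaged 2615 and 2406 TPM. Cryab, a small chaperone gene expressed strongly in muscle, stood at 4.21, 19.3 and 247 TPM in OA replicates 1, 2 and 3, and 9 listed heart muscle markers summed to 41.2, 415 and 5681 TPM in the same libraries. Those markers made up 0.568% of OA replicate 3.

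Tfrc was the single gene of the 5 that fell. It stood at 82.4, 84.1 and 91.0 TPM in control replicates 1 to 3 and at 77.55, 76.5 and 72.4 TPM in OA replicates 1 to 3. Replicate 3 was the highest control and the lowest OA library, and 4.86 TPM separated the groups. The means were 85.8 ± 4.56 and 75.5 ± 2.71 TPM, a log2 change of -0.18 (SE 0.0608, 95% interval -0.34 to -0.03, adjusted p = 0.0414, limma). Among the 559 genes this change ranked 494 by size. The call was lost without any 1 of the libraries. In limma the adjusted p was 0.0788, 0.0786 and 0.0793 without control replicate 1, 2 or 3, and 0.0636, 0.0991 and 0.0781 without OA replicate 1, 2 or 3. The log2 change was -0.14 without control replicate 3, -0.15 without OA replicate 3 and -0.11 without both.

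The stability of Tfrc mRNA is known to follow cellular iron through hairpins in its 3' UTR called iron-responsive elements, which are shown because they are the best known control point of this transcript. The protein-coding transcripts of GENCODE M21 (GRCm38) were searched for the pattern of an unpaired C, 5 stem bases, a loop of CAGTG followed by A, C or T, and 5 bases that pair with the first 5, with G allowed to pair with T. An element with another loop or an imperfect stem would be missed, so the matches are not a count of all such elements. The main Tfrc transcript of 4890 bases held 4 matches, all in exon 19, which carries the 3' UTR. They lie on the plus strand at chr16:32631219-32631247, chr16:32631598-32631626, chr16:32631663-32631691 and chr16:32631710-32631738. The loop is in capitals and 6 bases are shown on either side of the pattern.
Site 1: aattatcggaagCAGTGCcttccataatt
Site 2: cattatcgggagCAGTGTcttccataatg
Site 3: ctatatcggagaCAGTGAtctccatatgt
Site 4: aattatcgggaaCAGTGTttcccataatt

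Between the stop codon and the first stretch shown lie 882 bases, and 1373 bases lie between the stop codon and the last, in a 3' UTR of 2458 bases. Of 21877 genes with a protein-coding transcript, 222 genes (1.01%) held at least 1 match, and Tfrc alone held as many as 4. None of the other 4 genes described here held a match. Of the listed genes, Dstn, Gprin3, Iigp1 and Serpina3f held 1 match each.

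**Figure D3:**
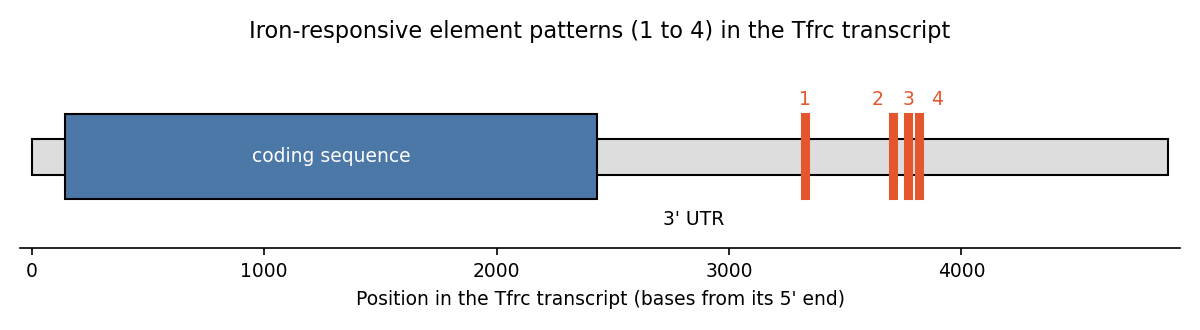
Map of the 4890-base Tfrc transcript to scale (horizontal axis, bases from its 5' end), with the coding sequence as a tall blue box, the UTRs in grey and the 4 iron-responsive element patterns in orange. Sites 2, 3 and 4 lie close together, and site 1 lies upstream of them.

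The rest of the iron pathway was almost absent from the table, which gives no level or change for an unlisted gene. Of 38 genes of iron uptake, storage and export, Tfrc fell and Slc39a8, a zinc importer gene whose product also carries iron, was the other listed gene. Slc39a8 stood at 17.6, 16.9 and 17.1 TPM in control and at 14.6, 12.35 and 7.95 TPM in OA and did not pass (adjusted p = 0.0521, limma). The groups did not overlap, and OA replicate 3 was far below the other OA libraries. The ferritin genes Fth1 and Ftl1, the iron exporter gene Slc40a1 and the haem oxygenase gene Hmox1 were not listed. The list of 49 ferroptosis genes, which mixes genes that protect against the process with genes that feed it, had 6 listed members, 4 of them among the 5 genes. Scd1, which makes the monounsaturated fatty acids that resist peroxidation, rose from 12.9 ± 1.88 to 20.6 ± 1.09 TPM. Gpx4, Acsl4 and Aifm2 were not listed.

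Over the 9 redox, iron, prostaglandin and stress lists together, 24 of 298 genes were in the table, of which 13 rose, 2 fell and 9 did not pass. With the 5 genes left out, 9 of the remaining 19 rose, 1 fell and 9 did not pass. The background share of calls is the 76.0% given above, with 36.0% called as higher and 40.1% as lower. The median log2 fold change of the remaining 19 was 0.17, against 0.14 for all listed genes. The count over the lists was 0 without control replicate 1 and 0 without OA replicate 2. It was 3 called without control replicate 2, 3 without control replicate 3, 7 without OA replicate 1, 7 without OA replicate 3, 10 without replicate 3 of both groups and 5 with libraries scaled to equal medians.

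**Figure D4:**
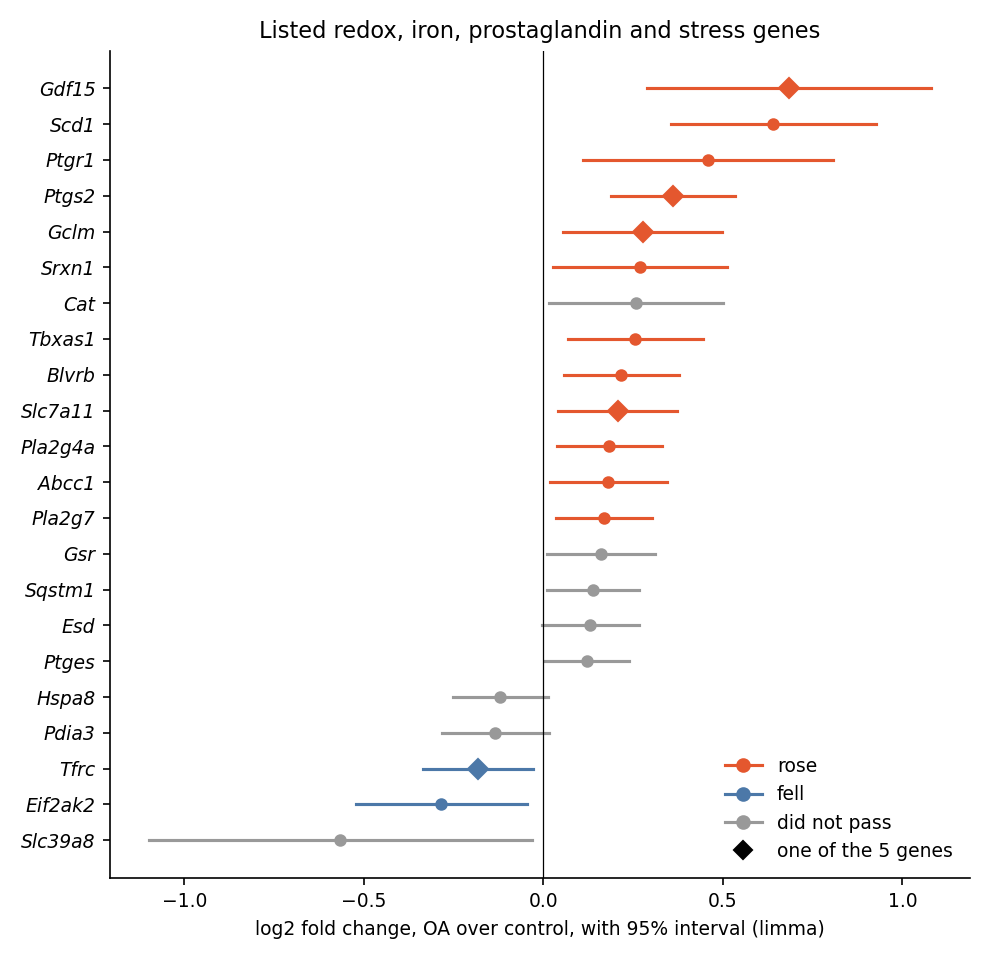
Limma log2 fold change of OA over control with its 95% interval for listed redox, iron, prostaglandin and stress genes, coloured by call, with diamonds for the 5 genes described here; Cryab, with an interval too wide for the axis, and 1 gene not reported here are left out. Most points lie to the right of 0 at small changes, and Tfrc, Eif2ak2 and Slc39a8 lie furthest to the left.

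The hypoxia and NF-kB lists overlap the 5 genes through Tfrc and Ptgs2. Of 26 hypoxia response genes 5 were listed. Vegfa (38.3 ± 1.92 to 50.5 ± 3.43 TPM) and Hilpda rose, Hk2 and Tfrc fell and Ldha did not pass, beside 76.0% called among all listed genes. Of 43 NF-kB inflammatory genes 29 were listed, of which 22 rose, 6 fell and 1 did not pass, beside 36.0% called as higher and 40.1% as lower among all listed genes. The 6 that fell were Ccl5, Csf2, Nos2, Icam1, Irf1 and Cxcl10. The median log2 fold change of the 29 was 0.38. It was 0.14 for all listed genes and -0.17 for those with a mean of at least 10 TPM. Like the other lists, this one was chosen with earlier results of these data known, so the median of the list is only a description. Ptgs2 stood near that median. Its rise of 0.36 was larger than that of Il1b, the interleukin 1 beta gene, at 0.25.

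Ratios within a library do not depend on how that library was scaled. The TPM ratio of Ptgs2 to Tfrc was 8.52, 8.85 and 7.88 in control replicates 1 to 3 and 11.8, 13.1 and 12.0 in OA replicates 1 to 3. The ratio of Slc7a11 to Tfrc, the cystine importer over the iron importer, was 1.73, 1.74 and 1.45 in control and 2.11, 2.21 and 2.12 in OA. The ratio of Gclm to Tfrc was 2.79, 2.75 and 2.10 in control and 3.39, 3.46 and 3.59 in OA. For Gdf15 it was 0.133, 0.182 and 0.131 in control and 0.234, 0.274 and 0.329 in OA. That the groups separate in each ratio follows from the levels of the single genes and adds nothing to them. On the log2(TPM + 1) scale the difference was 0.54 for Ptgs2, 0.39 for Slc7a11, 0.46 for Gclm and 0.87 for Gdf15. Within the groups, the libraries' log2 deviations of Slc7a11 and Gclm correlated at r = 0.77 and those of Gclm and Tfrc at r = -0.76 over 6 libraries, the highest and the lowest of the 10 pairs of the 5 genes. Ptgs2 and Slc7a11 correlated at r = 0.70, and the other pairs lay between -0.39 and 0.35. These correlations are descriptions over few libraries.

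Markers of other cell types changed between the groups in the same libraries. Fewer cells of a type and less RNA per cell cannot be told apart in such bulk samples. Among all listed genes 36.0% were called as higher and 40.1% as lower, which is the background for the counts of markers. All 9 listed of 12 NK markers fell, and their summed level was 4259 to 5086 TPM in control and 2790 to 3585 TPM in OA. Among them Ncr1, which encodes the NK receptor NKp46, stood at 128, 126 and 140 TPM in control and at 105, 91.4 and 79.1 TPM in OA, so the labelled cell type's markers were present in every library. Of 22 monocyte, macrophage and dendritic cell markers 10 were listed; 8 rose and 2 fell, and their sum was 4661 to 5146 TPM in control and 5732 to 6034 TPM in OA. Of 10 B and plasma cell markers 6 were listed and 5 rose, with a sum of 323 to 403 TPM in control and 503 to 592 TPM in OA. Of the other marker lists, Mmp9 (1 listed of 10 neutrophil markers) and Hbb-bt (1 of 7 erythroid) rose, while Cd28 and Icos (2 of 9 T cell) and Mcpt8 and Kit (2 of 6 mast cell and basophil) fell. None of the 9 listed heart muscle markers passed. None of the listed NK, myeloid or B cell markers was at 0 in any library. The most abundant myeloid marker was Il1b at 3091 to 3350 TPM in control.

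Set against the summed myeloid markers of the same library, 3 of the 5 genes no longer separated the groups. Slc7a11 was 2.83% to 2.85% of the summed myeloid markers in control and 2.57% to 2.85% in OA, a log2 difference of -0.053. Gclm was 4.10% to 4.59% in control and 4.35% to 4.59% in OA, a log2 difference of 0.016. Ptgs2 was 14.0% to 15.4% in control and 14.5% to 16.6% in OA, a log2 difference of 0.10. Gdf15 was 0.219% to 0.298% in control and 0.316% to 0.398% in OA without overlap, and Tfrc was 1.63% to 1.95% in control and 1.21% to 1.35% in OA without overlap. Set against the summed NK markers, all 5 genes were higher in each OA library than in any control library. Tfrc was at 1.79% to 1.97% in control and 2.16% to 2.60% in OA. For Ptgs2, Slc7a11, Gclm and Gdf15, whose TPM rose, this separation follows from the fall of the NK sum without overlap and adds nothing. The same holds for the lower Tfrc against the summed myeloid markers, which rose without overlap. The most abundant of these myeloid markers, Il1b, is an inducible cytokine gene that is also on the NF-kB list, and it made up 64.9% to 66.3% of their sum. Against the sum of the other myeloid markers, Ptgs2, Slc7a11 and Gclm overlapped too, with log2 differences of 0.072, -0.081 and -0.012, while Gdf15 (0.44) and Tfrc (-0.47) did not overlap. The sign for Slc7a11 was thus the reverse of its TPM change relative to myeloid markers, with or without Il1b. For Gclm it was the reverse only relative to those other than Il1b. In these cases the differences were small and the groups overlapped, so no change of direction is shown. The NK sum includes the granzyme and perforin genes Gzma, Gzmb and Prf1, and no ratio to a sum without them was formed. Tfrc was reversed relative to NK markers, without overlap. These ratios were chosen after the data were seen, and the markers had passed the same Q threshold as every listed gene. The part that the cell mixture had in the changes of the 5 genes was not tested.

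**Figure D5:**
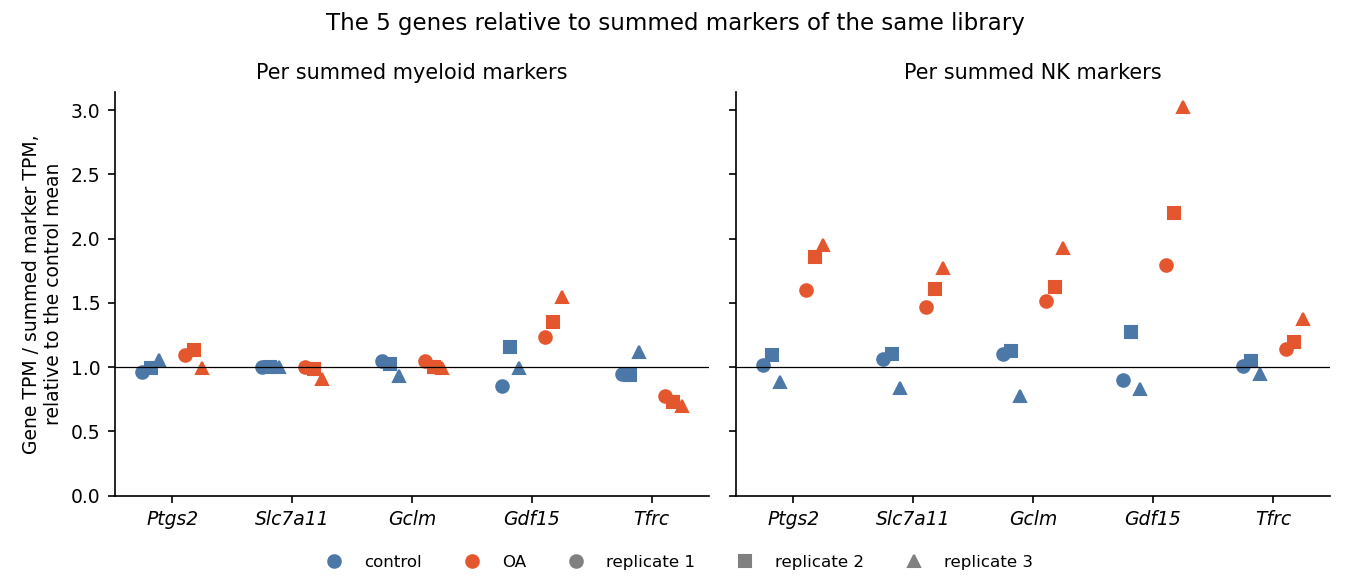
TPM of each of the 5 genes divided by the summed TPM of the listed myeloid (left) or NK (right) markers of the same library, relative to the mean of the 3 control libraries (vertical axis, from 0); colours give the group and symbols the replicate number. In the left panel Ptgs2, Slc7a11 and Gclm overlap between the groups, and in the right panel all 5 genes lie higher in OA.

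The listed genes most like each of the 5 were found by Pearson correlation of log2(TPM + 1) over the 6 libraries, among 463 other named genes with a mean of at least 10 TPM. With 6 libraries in 2 groups such values run high: the median over these genes of the highest r with any other was 0.998. For Ptgs2 they were Ptges (r = 0.993), Mmp13 (r = 0.991) and Il6 (r = 0.98). For Slc7a11 they were Abcc1 (r = 0.998), Fam129b (r = 0.995) and Slc15a3 (r = 0.991). For Gclm they were Ppfibp2 (r = 0.999), Gsr (r = 0.994) and Phlda1 (r = 0.991). For Gdf15 they were Tlr8 (r = 0.982), Dpp4 (r = 0.975) and Plaur (r = 0.975). The highest r of Gdf15 lay below the 5th percentile of the highest r of these genes, 0.983. For Tfrc they were Calhm6 (r = 0.999), Gbp7 (r = 0.997) and Il17f (r = 0.997). Calhm6 shared the shape of Tfrc but not its size, with means of 77.4 ± 17.1 TPM in control and 43.7 ± 6.39 TPM in OA.

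By log2 fold change the 5 genes stood in the same order in the authors' deposited table and in limma, and by p or Q value in different orders. The log2 fold changes in the authors' deposited table were 0.37 for Ptgs2, 0.21 for Slc7a11, 0.28 for Gclm, 0.73 for Gdf15 and -0.18 for Tfrc. The Q values in the authors' deposited table were 1.83e-12 for Ptgs2, 0.000703 for Slc7a11, 0.00445 for Gclm, 0.017 for Gdf15 and 0.0192 for Tfrc. Gdf15, with the second smallest adjusted p of the 5 in limma, had a larger Q value in the authors' deposited table than any of the 5 but Tfrc. Both sources gave the same direction for each gene.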

How the data were processed

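RNA from 6 libraries, 3 control and 3 OA, was compared. Per the submitters' processing notes, the tools were Bowtie2, RSEM 1.3.1 and DESeq2 1.4.5 and the genome was mm10, with no role or order stated. The annotation and any filter are not given in the sources used here. Per the file headers, the authors deposited TPM per library, a mean TPM per group, a log2 fold change, and a P value and Q value per gene. TPM keeps no read numbers, so depth and counting error are unknown.

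Columns were matched to samples by title. The 559 genes were fitted together on log2(TPM + 1) with limma 3.58.1 (R 4.3.3), without a filter or covariate, two-sided, with Benjamini-Hochberg adjusted p under 0.05; this scale understates the change of low genes. The limma script was tested on simulated data with independent noise for each gene and only part of the genes changed. The listed genes all differed by construction and were strongly correlated, so that test covers the script and not the calls. Values are mean ± SD. Folds in the text are ratios of mean TPM. Python 3.11.15, pandas 2.3.3, numpy 2.4.6, scipy 1.17.1 and matplotlib 3.10.9 were used.

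The 5 genes, the 11 gene lists and the markers were chosen with earlier results of these data known. The named genes were the 5, up to 6 listed genes per redox, iron, prostaglandin or stress list by smallest p, and the 3 most correlated genes for each of the 5; genes of the hypoxia and NF-kB lists, marker genes and Esd were picked after their values were seen. Promoters are from RefSeq (all 5 genes matched) and transcripts from GENCODE M21, both on GRCm38, the assembly of mm10. Alternatives were other pseudocounts, a level filter, median scaling, another prior, a stricter threshold, the replicate number as a block, leaving out libraries and, added later, ratios to marker sums. Values of 1 gene counted on the 9 redox, iron, prostaglandin and stress lists are not reported here.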

Additional observations from a re-analysis of the deposited data

How the results depend on the processing

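No alternative on TPM turned the direction of any of the 5 genes, and all 5 kept their call with pseudocounts of 0.1 and 5, with a minimum mean of 10 TPM and with an intensity trend and robust prior. At an adjusted p under 0.01 limma called 1 of the 559 genes (unadjusted, 122 higher and 70 lower) and 0 over the redox, iron and stress lists, and the 5 genes did not pass at their unaltered log2 values of 0.36 (Ptgs2), 0.21 (Slc7a11), 0.28 (Gclm), 0.68 (Gdf15) and -0.18 (Tfrc). With libraries scaled to equal medians 244 genes were called, 5 of them on the lists, and Slc7a11 (log2 0.20, adjusted p = 0.0764), Gclm (0.27, 0.0567) and Tfrc (-0.19, 0.0789) did not pass.

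With the replicate block limma called 0 genes (149 higher and 89 lower where p under 0.05 is left unadjusted) and 0 on the lists; the log2 values of the 5 genes were as above, with adjusted p from 0.115 to 0.147. The labels do not say that a number marks a shared source: the deviations of same-numbered libraries correlated at r = 0.327, -0.109 and -0.081 for replicates 1, 2 and 3 over 559 genes, and control replicate 2 correlated best with OA replicate 3 (r = 0.35).

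Leaving out libraries gave from 0 to 381 called genes and from 0 to 10 on the lists. Limma called 0 genes without control replicate 1 (171 higher and 168 lower before adjustment) and 0 without OA replicate 2 (159 and 168), 100 without control replicate 2 and 149 without control replicate 3. It gave log2 values from 0.31 to 0.41 for Ptgs2, 0.16 to 0.24 for Slc7a11, 0.19 to 0.32 for Gclm, 0.55 to 0.82 for Gdf15 and -0.21 to -0.11 for Tfrc. The cause of these losses was not tested; each such fit has fewer libraries.

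Relative to summed myeloid markers the log2 differences were 0.10 (Ptgs2), -0.053 (Slc7a11, reversed), 0.016 (Gclm), 0.47 (Gdf15) and -0.45 (Tfrc), with exact permutation p from 0.1 to 0.9. Without Il1b in that sum they were 0.072, -0.081 (reversed), -0.012 (Gclm, reversed), 0.44 and -0.47. Reversed refers to the sign alone, and for Slc7a11 and Gclm the groups overlapped in these ratios to myeloid markers. Relative to summed NK markers they were 0.85, 0.70, 0.77, 1.22 and, for Tfrc, 0.31 (reversed), with exact permutation p of 0.1 each. The cause was not tested. TPM gives no counting error, so how far depth limits these small differences is unknown.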
